A study of Mus musculus with 12 samples.

Results

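Germ cells and somatic cells of the newborn mouse testis were compared after exposure to dexamethasone (dex), a synthetic agonist of the glucocorticoid receptor (GR). The comparison used 6 of the 12 libraries in the series, 3 of germ cells and 3 of somatic cells chosen by their labels, and ran over the 18778 of 54532 genes that had enough counts in them. All animals were males carrying Tg(Pou5f1-EGFP)2Mnn, a transgene that makes germ cells fluoresce green (GFP) under control of Pou5f1, the gene of OCT4, and testes were taken at postnatal day 1 (PN1). Dams received dex by intraperitoneal injection at E17.5 and E18.5 (embryonic days) at 10 μg per g of body weight, and pups received the same dose under the skin on postnatal day 0. The remaining 6 libraries came from animals given an equal volume of saline on the same days, again 3 of germ and 3 of somatic cells. Testes were dissociated and sorted by fluorescence, with doublets and dead cells gated out, into OCT4-GFP positive germ cells and OCT4-GFP negative cells. The negative fraction holds the other living cells of the testis, so "somatic cells" is a mixture of types whose proportions were not measured. Each replicate pooled testes from at least 2 litters dosed independently, and the pups behind a replicate were not counted in the labels.

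At this age the male germ cells are prospermatogonia. They are near the end of the mitotic arrest of fetal life, they carry the machinery that makes PIWI-interacting RNAs (piRNAs), which direct methylation and silencing of transposons, and they are the founders of the spermatogonial stem cells. Around them Sertoli cells build the cords and supply growth factors, peritubular muscle-like cells wrap the cords, and fetal Leydig cells make androgen in an interstitium of fibroblast-like stroma, vessels and macrophages. GR is a nuclear receptor that waits in the cytoplasm with heat shock proteins and, once bound by ligand, enters the nucleus and regulates genes.

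Values are CPM, counts relative to library size scaled by the trimmed mean of M-values (TMM), given as mean ± SD of 3 libraries. CPM is not corrected for gene length, so levels are compared between populations for 1 gene and not between genes. A log2 fold change is germ over somatic cells with its standard error, and a gene is called at a Benjamini-Hochberg adjusted p at or under 0.05 in the quasi-likelihood test of edgeR. Since most genes were called, a stricter class is used as well, past 2-fold, for genes whose change exceeded 2-fold in edgeR's test against that threshold. Where a pair of values is set against each other, the germ level stands first. In bulk RNA a lower level from fewer cells of a type and from less RNA per cell cannot be told apart.

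Libraries of the 6 dex samples held 19012211 to 25178477 counts. Mitochondrial genes took 1.53% to 2.75% of counts, and the 100 most abundant genes took 10.8% to 12.2% in germ cells and 16.2% to 17.3% in somatic cells. Over all 12 libraries 87.3% of the variance lay on a first component that separated the populations. Dex somatic replicate 2 stood apart from the other dex somatic libraries on the second component (2.21% of the variance), at −65.9 against −16.5 and −24.2. That component also separated the treatments, at 4.62 to 42.9 in saline libraries and −65.9 to −3.50 in dex libraries. Where no read was counted, up to 3 counts remain possible, or 0.111 to 0.170 CPM in these libraries.

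The piRNA pathway had nearly all of its genes higher in germ cells, and 7 of its genes also share a DNA element in front of the gene. The E-box CACGTG, searched on both strands in RefSeq promoter windows (GRCm38.p6, 250 bases before to 50 after the start), was present in 7 of 22 pathway promoters that could be matched, against 9.80% of the 12842 tested genes with a promoter and 7.70% of all 20453 promoters. Other germ cell lists held it too, in 3 of 7 matched promoters of germ cell identity genes and 6 of 27 of meiosis genes. In genes of prospermatogonia and spermatogonial stem cells it was present in 2 of 18. The E-box was picked out after the counts of 5 motifs had been seen, so these numbers are a description. The other motifs were GGCGGGA, CAAGGTCA and AGATAA, found in 3, 0 and 1 of the 22 promoters and in 19.7%, 1.12% and 6.86% of those of tested genes, and the CArG box, found in 0 and in 1.40%. Among genes past 2-fold the E-box was present in 10.9% of promoters where germ cells were higher and 7.27% where they were lower. The match nearest the start is printed for each of the 7 genes, on the strand of the gene, with CACGTG in capitals.
Piwil1, chr5:128736067-128736122, plus strand: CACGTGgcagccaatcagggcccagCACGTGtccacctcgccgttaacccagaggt
Tdrd1, chr19:56826173-56826208, plus strand: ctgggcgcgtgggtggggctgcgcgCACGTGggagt
Tdrd9, chr12:111971439-111971494, plus strand: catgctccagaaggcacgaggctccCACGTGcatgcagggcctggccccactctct
Stk31, chr6:49395459-49395514, plus strand: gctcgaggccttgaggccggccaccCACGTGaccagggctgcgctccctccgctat
Mov10l1, chr15:88982744-88982778, plus strand: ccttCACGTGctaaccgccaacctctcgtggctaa
Mael, chr1:166238937-166238992, minus strand: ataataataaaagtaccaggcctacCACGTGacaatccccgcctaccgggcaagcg
Fkbp6, chr5:135350051-135350106, minus strand: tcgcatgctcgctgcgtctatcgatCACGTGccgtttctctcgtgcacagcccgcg

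All 7 of these genes were past 2-fold higher in germ cells. Mael, which acts in transposon silencing, stood at 392, 385 and 414 CPM in the germ libraries and 0.113, 0.253 and 0 CPM in the somatic libraries. The helicase gene Mov10l1, needed to make piRNA precursors, stood at 383 ± 30.5 CPM against 0.229 ± 0.207 CPM in somatic cells. Tdrd1, Tdrd9 and Stk31 encode Tudor-domain proteins of the germ granules, and their mean levels were 314 against 0.36, 265 against 0.522 and 275 against 0.494 CPM. Fkbp6, which encodes a co-chaperone of PIWI loading, stood at 348, 364 and 387 CPM in germ and 8.21, 3.55 and 5.09 CPM in somatic cells. Piwil1, a PIWI protein best known from later spermatogenic cells, stood at 35.6, 36.8 and 26.2 CPM in germ cells and had no count in any somatic library, which makes it at least 208-fold higher.

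Each marker of the sort separated the germ from the somatic libraries. Ddx4, an RNA helicase of the germ line, stood at 642, 635 and 624 CPM in germ libraries and 0.906, 0.507 and 0.403 CPM in somatic libraries, a log2 fold change of 10.04 ± 0.16 (edgeR adjusted p 5.7e-13). Dazl, an RNA-binding protein that licenses germ cell development, stood at 1254, 1101 and 1259 CPM in germ and 0.736, 0.405 and 1.01 CPM in somatic libraries. Pou5f1, at 79.6, 74.8 and 102 CPM against 0, 0.253 and 0.252 CPM, checks the gate only, because the GFP is under its control. On the other side, the Sertoli hormone gene Amh stood at 10.1, 5.1 and 7.58 CPM in germ cells and 1939, 1627 and 1850.3 CPM in somatic cells, a log2 fold change of −7.91 ± 0.21. Acta2, the smooth muscle actin of peritubular cells, stood at 3.87, 2.03 and 3.96 CPM and 1198, 1185 and 1072 CPM, lower in germ cells by a log2 fold change of −8.48 ± 0.19. The Sertoli transcription factor gene Sox9 was lower in germ cells by a log2 fold change of −5.18 ± 0.10, and the Leydig cell genes Star and Cyp11a1 by −2.33 ± 0.21 and −4.78 ± 0.44.

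Markers of one population were low but unequal in the other. The 11 germ cell markers summed to 3873 to 4073 CPM in germ libraries and 27.0 to 29.5 CPM in somatic libraries, which is 0.714% of the germ level. The 20 Sertoli markers summed to 386 to 474 CPM in germ and 8366 to 9520 CPM in somatic libraries (4.68%), the 15 peritubular markers to 166 to 186 and 3680 to 3966 CPM (4.51%), and the 12 stromal markers to 296 to 306 and 7789 to 9582 CPM (3.55%). The 11 Leydig markers summed to 137 to 149 and 677 to 801 CPM (19.8%). That sum includes Fdx1, which was not called, and the median log2 fold change of the 11 was −4.79. The part that carried-over RNA of other cells has in the germ level of an abundant somatic gene was not tested. In the plot of markers by library, no germ library reaches the somatic range for any of the 15 genes.

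**Figure D1:**
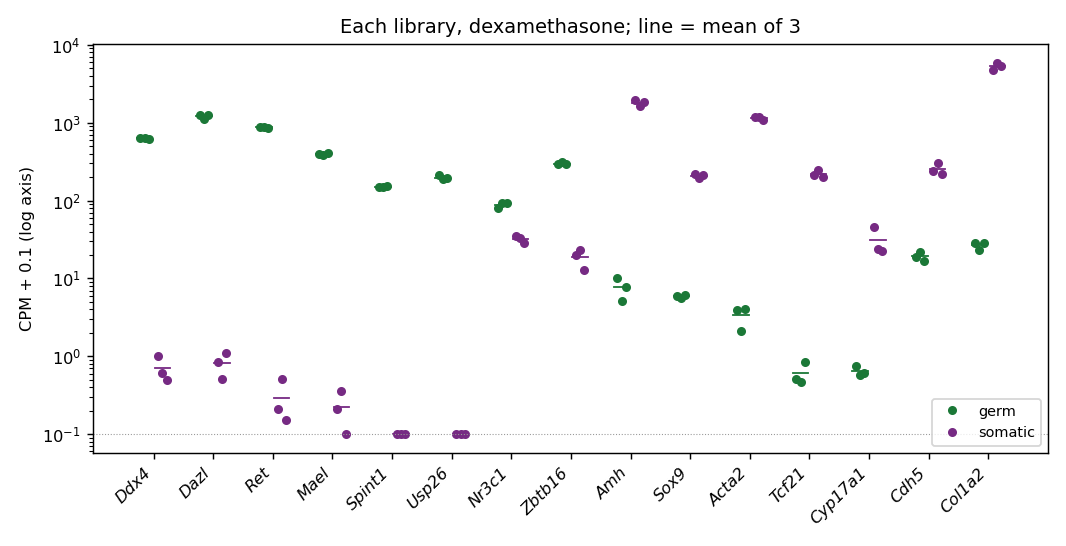
CPM (log axis, with 0.1 added) of 15 marker and signalling genes in each of the 3 dex germ and 3 dex somatic libraries, with a line at the mean of each group. Ddx4 lies between 624 and 642 CPM in germ libraries and under 1 CPM in somatic libraries, and Amh lies between 5.1 and 10.1 CPM in germ and between 1627 and 1939 CPM in somatic libraries.

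The transcriptomes of the populations differed for most genes. edgeR called 14326 of 18778 genes (76.3%), 7614 higher in germ cells (40.5%) and 6712 lower (35.7%). Past 2-fold were 8700 genes, 4664 higher in germ cells (24.8%) and 4036 lower (21.5%). In 15010 genes (79.9%) all germ libraries lay above or below all somatic libraries, and 14185 of these were also called. The very large differences leaned to the germ side: 2005 genes were higher in germ cells by at least 4 on the log2 scale against 1223 that were lower, and 1380 against 467 differed by at least 6. These counts rest on fitted values, which for genes with no count in one population depend on the prior count. More genes were detected in germ cells, 15672 to 16068 at 1 CPM or more per library against 14790 to 14916 in somatic cells. Over all genes the log2 fold change had a median of 0.12 with TMM and 0.30 with library totals. The counts of members given for each group of genes below are read against 24.8% and 21.5%. With only genes at 10 counts or more in every library, 5148 genes were past 2-fold, 2333 of them higher in germ cells, since genes silent in either population leave that test.

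**Figure D2:**
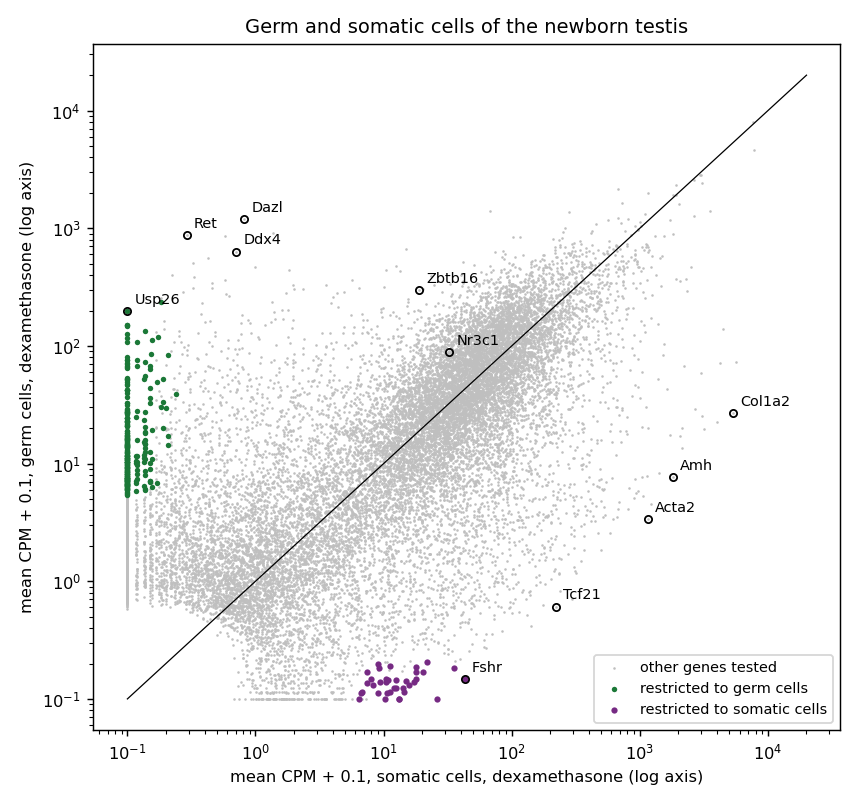
Mean CPM of each tested gene in dex germ cells against dex somatic cells on log axes, one point per gene, with genes restricted to either population coloured. The coloured points are the 257 genes restricted to germ cells and the 36 restricted to somatic cells. Genes past 2-fold are not marked.

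Genes were called restricted when they had at least 5 CPM in every library of one population and at most 3 counts in every library of the other. Germ cells had 257 such genes and somatic cells 36. In saline the same rule gave 182 and 29, of which 118 germ genes (45.9% of the dex and 64.8% of the saline list) and 12 somatic genes (33.3% and 41.4%) were in both lists. They form 2.30% of the 11165 genes with at least 5 CPM in every germ library and 0.317% of the 11347 with that level in every somatic library. Of the 257, 223 are protein-coding and 23 long non-coding RNAs, and their germ means ran from 5.30 to 235 CPM with a median of 12.5 CPM. Together they took 0.675% to 0.702% of germ counts and 0.000212% to 0.000458% of somatic counts. No somatic count at all was found for 186 of them, which puts them at least 33.6-fold to at least 1254-fold higher in germ cells.

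The most abundant restricted germ genes were a mixed set. Gm15262 (mm10 chromosome X, 161287456 to 161366252) stood at 241, 228 and 237 CPM in germ cells and 0, 0.152 and 0.101 CPM in somatic cells. Usp26, a testis ubiquitin protease on chromosome X (51753959 to 51801233), stood at 211, 187 and 195 CPM and had no somatic count, at least 1254-fold higher. The same held for Spint1, a membrane inhibitor of serine proteases (chromosome 2, 119237362 to 119249527), at 149.7, 149 and 154 CPM, and for Nlrp4c at 151 ± 24.4 CPM, each at least 957-fold higher. Tex13b at 149, 140.0 and 156 CPM and Asz1, a piRNA factor of germ granules and mitochondria, at 134, 114 and 133 CPM were at least 941-fold and 808-fold higher. Rbmxl2, a retrogene that encodes a germ line splicing regulator, stood at 108, 120.2 and 120.3 CPM, and Pramel1 at 109, 102 and 115 CPM, again with no somatic count. Rpl10l, the retrogene copy of ribosomal protein L10, stood at 119.7, 146 and 139 CPM against 0.113, 0 and 0 CPM, and Topaz1, needed later in male meiosis, at 128, 115 and 113 CPM against 0.17, 0.0507 and 0 CPM. Among long non-coding RNAs, 1700018B24Rik at 17.4, 20.7 and 25.5 CPM and Gm26678 at 17.0, 13.5 and 22.0 CPM led the list, at least 134-fold and 111-fold higher.

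Chromosome X held 45 of the 257 restricted germ genes (17.51%), 37 of them protein-coding, while 740 of the tested genes lie on it (3.94%). They include Usp26, Gm15262, Tex13b, Trap1a, Xlr5a, Ccnb3, Pramel3, Rhox1 and Rhox10, and several of these belong to families of similar copies. Over all tested genes chromosome X did not lean to germ cells: 30.9% of its genes were past 2-fold higher and 32.6% lower. On the 19 autosomes those shares ran from 19.8% to 27.7% and from 16.4% to 28.2%. Of 17 tested genes on chromosome Y, 8 were higher and 3 lower.

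The 36 restricted somatic genes stood at 6.35 to 42.9 CPM, with a median of 11.6 CPM, and took 0.0447% to 0.0490% of somatic counts. Fshr, the receptor of Sertoli cells for follicle-stimulating hormone, stood at 42.3, 50.1 and 36.3 CPM in somatic cells, with 0, 0 and 3 counts in germ libraries. Fibin had 35.2, 40.3 and 31.4 CPM in somatic and 0.0922, 0.111 and 0.0465 CPM in germ cells. 8030411F24Rik, at 26.1, 24.0 and 27.9 CPM, had no germ count and was at least 200-fold higher in somatic cells. Lrrn3, Sdsl, Fmod, Etd and A730049H05Rik were among the most abundant of the rest. A730049H05Rik overlaps Adamts9 on the opposite strand and the long non-coding RNA Gm10824 overlaps Tcf21 likewise, so their reads cannot be told from those of the neighbour unless the counting used strand, which is not stated. Only 5 of the 36 had no germ count. At an average log2 CPM of at least 4, the largest changes toward somatic cells included Rhox8 (−8.97 ± 0.23), Tcf21 (−8.77 ± 0.18), Defb19 (−8.75 ± 0.21), Foxs1 (−8.48 ± 0.25) and Lrrc17 (−8.37 ± 0.22), all with germ libraries below somatic ones. Rhox8 and Defb19 are Sertoli genes and Tcf21 a transcription factor gene of the stroma.

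Gene lists of known roles were then compared. Of 28 genes of prospermatogonia and spermatogonial stem cells, 27 were past 2-fold higher in germ cells, with a median log2 fold change of 5.77, or 5.74 with genes that had no somatic count at their bound, and 3.67 with limma-trend on log2(FPKM + 1). Ret, the receptor for the stem cell factor GDNF, stood at 883, 893 and 859 CPM in germ and 0.113, 0.405 and 0.0504 CPM in somatic cells. Lhx1, a transcription factor gene downstream of GDNF, stood at 84.7, 94.3 and 60.9 CPM with no somatic count, and Pax7, a marker of rare spermatogonia, at 22.9 ± 7.21 CPM with no somatic count, at least 507-fold and 145-fold higher. Sall4, a zinc finger regulator of the germ line, stood at 503 ± 38.6 CPM against 0.223 ± 0.0982 CPM. The cell adhesion genes Cdh1 and Epcam stood at 168 against 1.33 and 171 against 13.03 CPM. Itga6, an integrin gene often used to enrich stem cells, was the single member that did not pass the 2-fold test.

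Pluripotency and primordial germ cell genes were mostly higher in germ cells. Of 19 tested members, 13 were past 2-fold higher in germ cells and 3 lower. Sox2 stood at 22.9, 34.8 and 24.0 CPM with no somatic count, Dppa5a at 14.1 ± 2.42 CPM with no somatic count and Dppa2 at 14.7 ± 0.962 CPM with no somatic count, where 27.3% and 26.7% of the 64-base words of Dppa5a and Dppa2 also occur in other genes. The exceptions were Klf4 at 63.3 ± 7.43 CPM against 241 ± 36.0 CPM, and the interferon-induced membrane protein genes Ifitm1 and Ifitm3, at 1.73 against 42.8 and 0.167 against 31.5 CPM. Nanog and Tdgf1 had too few counts to be tested.

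The piRNA pathway had 27 of 29 genes past 2-fold higher in germ cells and none past 2-fold lower, with a median of 6.77, or 4.08 with limma-trend on log2(FPKM + 1). The PIWI genes Piwil2 and Piwil4 stood at 668 against 14.9 and 84.5 against 0.611 CPM. Morc1, a nuclear effector of transposon silencing, stood at 255 ± 23.8 CPM against 0.0755 ± 0.131 CPM, and Asz1 has been given above. Tdrd3, a Tudor protein of general RNA metabolism, went the other way at 32.3 ± 4.68 CPM against 72.5 ± 6.99 CPM, a call that was not past 2-fold, and the kinesin gene Kif17 was called higher but not past 2-fold. The DNA methylation genes differed less. Dnmt3l, the cofactor of new methylation in the germ line, stood at 22.8, 29.4 and 15.7 CPM in germ and 0.34, 0 and 0 CPM in somatic cells, Dnmt3b at 100.01 ± 2.23 CPM against 17.9 ± 3.9 CPM, and the maintenance genes Dnmt1 and Uhrf1 at 696 against 239 and 488 against 182 CPM. Tet2 and Tet3, which oxidize methylcytosine, were past 2-fold lower in germ cells, at 4.4 against 44.3 and 61.6 against 154 CPM.

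Genes of meiosis, which male germ cells enter only later, were past 2-fold higher in germ cells in 26 of 30 tested cases and past 2-fold lower in none, with a median of 7.22, or 6.41 with genes that had no somatic count at their bound. It was 2.48 with at least 10 counts in each library and 3.13 with limma-trend on log2(FPKM + 1). Mei1 stood at 49.3, 53.2 and 53.3 CPM, Tex12, a component of the synaptonemal complex, at 37.0, 46.7 and 41.9 CPM, and Hormad1, a protein of the chromosome axis, at 67.4, 61.4 and 74.8 CPM, and none of the 3 had a somatic count. Stra8, which launches meiosis in response to retinoic acid, stood at 84.9 ± 19.3 CPM against 0.0525 ± 0.0505 CPM. Of the words of Hormad1, 16.8% occur in other genes.

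**Figure D3:**
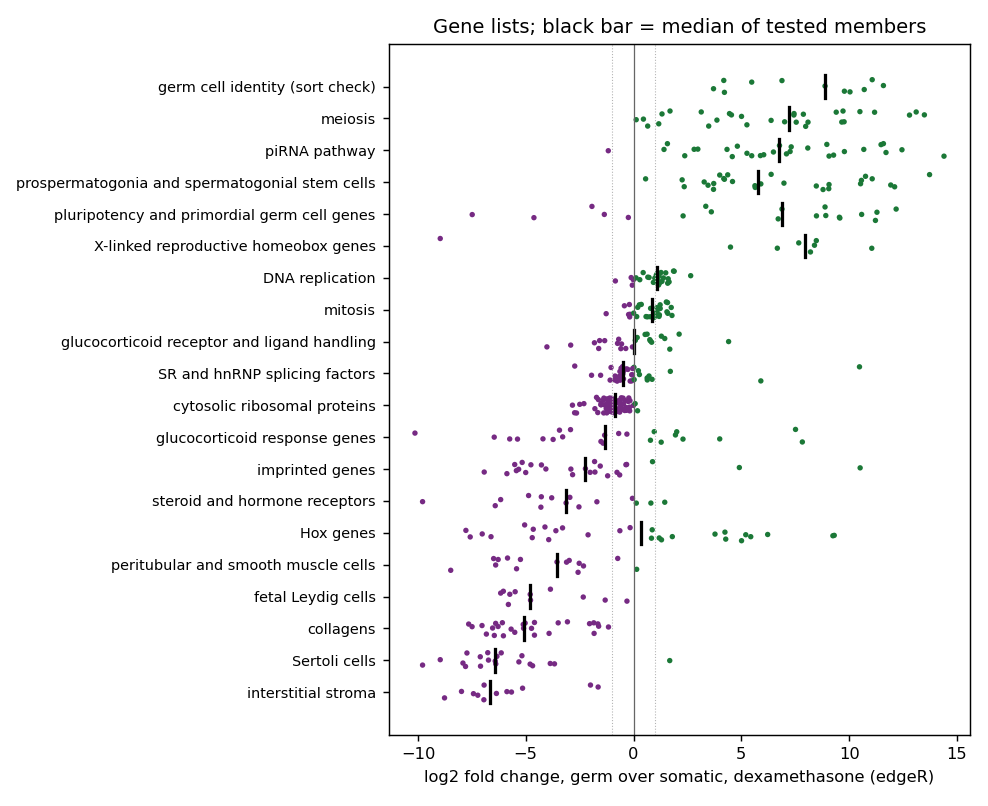
Log2 fold change of germ over somatic cells under dex for every tested gene of 20 gene lists, one point per gene, with a black bar at the median of each list and dotted lines at 2-fold. The piRNA, meiosis and prospermatogonia lists have medians of 6.77, 7.22 and 5.77, collagens and Sertoli genes medians of −5.10 and −6.40, and mitosis and replication genes sit close to 1.

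The somatic lists lay on the other side. Of 20 Sertoli genes, 19 were past 2-fold lower in germ cells, with a median of −6.40. The exception was Dmrt1, a transcription factor gene active in both lineages, at 287, 310.2 and 372 CPM in germ and 117, 85.8 and 99.0 CPM in somatic cells. The tight junction gene Cldn11 stood at 0.759 ± 0.37 CPM against 52.0 ± 9.18 CPM, and Aard at 6.06 ± 2.05 CPM against 824 ± 112 CPM. All 12 stromal genes were past 2-fold lower (median −6.65), including the proteoglycan genes Dcn and Lum at 5.48 against 935 and 0.253 against 62.7 CPM. Of 15 peritubular genes 13 were, with Myh11, smooth muscle myosin, at 3.9 ± 0.4 CPM against 328 ± 39.6 CPM. Of 11 Leydig genes 10 were, with Cyp17a1, needed for androgen synthesis, at 0.546 ± 0.0876 CPM against 30.7 ± 13.2 CPM, and with the electron carrier gene Fdx1 not called. For Insl3, the Leydig hormone of testis descent, the germ to somatic contrast was 0.154 against 9.91 CPM, but 60.9% of its 64-base words also occur in other genes and it overlaps Jak3.

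Markers of rarer cell types were divided. Of 15 endothelial genes 6 were past 2-fold lower in germ cells and 4 higher, with a median of −0.11 whose sign turned under 5 of the alternatives. Cdh5 (VE-cadherin), which defines the type, stood at 19.1 ± 2.32 CPM against 253 ± 44.0 CPM, whereas Erg at 53.4, 48.2 and 61.0 CPM against 2.32, 0.355 and 0.353 CPM and Flt1 at 28.6, 32.5 and 24.8 CPM against 1.98, 0.659 and 1.86 CPM lay on the germ side. The endothelial list summed to 170 to 184 CPM in germ and 299 to 385 CPM in somatic libraries. Macrophage markers were low in both, with Adgre1, Cx3cr1 and Ptprc too low to test, at 22.1 to 26.4 and 31.6 to 43.6 CPM summed over 14 genes. Erythroid markers summed to 4.42 to 7.54 CPM in germ cells and to 85.3, 299 and 152 CPM in somatic replicates 1 to 3, the highest being replicate 2, and their hemoglobin genes share 52.3% to 69.9% of their 64-base words with other genes. Lymphocyte markers summed to 5.72 to 10.6 CPM in germ and 0.760 to 1.86 CPM in somatic libraries, nearly all of it Cd79a. Epithelial markers of mesothelium and rete summed to 36.4 to 46.4 and 3.09 to 10.5 CPM, led by the keratin gene Krt7 at 17.6 ± 4.13 CPM against 0.612 ± 0.0497 CPM.

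Extracellular matrix genes lay mostly on the somatic side. None of 27 collagen genes was higher in germ cells and 26 were past 2-fold lower, with a median of −5.10. Col1a2 stood at 28.1, 23.3 and 28.3 CPM in germ libraries and 4692, 5927 and 5319 CPM in somatic libraries, and Col3a1 at 26.6, 17.6 and 23.2 CPM against 3673, 4439 and 3931 CPM. Laminins and integrins were divided, with 14 of 26 lower and 5 higher. Lamc3 and Lama2 stood at 4.02 against 674 and 4.58 against 685 CPM, while Lama3 (105 against 39.1 CPM), Lama5 (141 against 31.0 CPM), Itga2 (1.92 against 0.252 CPM) and Itgb4 (7.7 against 2.19 CPM) were among those higher in germ cells. Cadherins and claudins divided too, with Cdh1, Cdh4, Epcam and Cldn3 past 2-fold higher in germ cells and 5 of 16 lower, among them Cdh11 at 1.04 ± 0.239 CPM against 236 ± 33.6 CPM.

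Imprinted genes lay mostly on the somatic side, with 18 of 25 past 2-fold lower in germ cells (median −2.23) and 2 higher. H19 stood at 139.9 ± 25.6 CPM against 4474 ± 487 CPM, Dlk1, a Notch-related signal of stroma and fetal Leydig cells, at 71.8 ± 7.56 CPM against 4200.4 ± 609 CPM, and the non-coding RNA gene Meg3 at 17.0 ± 3.79 CPM against 2071 ± 429 CPM. Both maternally expressed genes, such as H19 and Meg3, and paternally expressed ones, such as Dlk1 and Peg3 (98.4 against 736 CPM), were among those lower. Phlda2 at 8.57 ± 1.36 CPM with no somatic count and Slc22a18 at 9.02 ± 1.38 CPM against 0.286 ± 0.249 CPM, which are neighbours, were the 2 on the germ side.

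Signals between the populations were laid out by role. Of 16 ligands known from the somatic niche, 12 were past 2-fold lower in germ cells and 1, Fgf9, higher at 4.42 ± 1.07 CPM against 0.827 ± 0.393 CPM. GDNF, which keeps stem cells, is made from Gdnf at 0.968, 0.74 and 0.884 CPM in germ and 78.4, 66.8 and 71.5 CPM in somatic cells (−6.39 ± 0.17), and its receptor genes Ret and Gfra1 were higher in germ cells by 12.11 ± 0.21 and 9.05 ± 0.18. Kitl stood at 95.3, 91.0 and 93.7 CPM in somatic and 4.29, 2.51 and 4.23 CPM in germ cells, and the gene of its receptor, Kit, at 6.57, 2.84 and 6.05 CPM in somatic and 95.9, 92.2 and 98.6 CPM in germ cells. The chemokine gene Cxcl12 stood at 4.72 ± 0.832 CPM against 500.1 ± 61.0 CPM, and the gene of its receptor Cxcr4 at 16.3 ± 1.76 CPM against 5.22 ± 0.593 CPM. In these 3 systems the ligand was lower and the receptor higher in germ cells, with no overlap of libraries. Receptors as a group had no common side, with 8 of 21 higher and 7 lower. Among ligands known from the germ line, Fgf8 stood at 5.5 ± 0.775 CPM against 0.169 ± 0.293 CPM, Lefty2 at 0.7 ± 0.206 CPM against 0.0506 ± 0.0507 CPM and Jag2 at 68.6 ± 5.63 CPM against 2.97 ± 0.168 CPM, and 5 of 8 were past 2-fold higher. Bmp8b overlaps Ppie on the opposite strand, so its 5.18 ± 0.40 is uncertain.

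Hedgehog signalling runs from Sertoli cells to the interstitium. Dhh stood at 1.06, 1.59 and 0.884 CPM in germ and 112, 94.4 and 102 CPM in somatic cells, and 12 of 16 genes of the hedgehog and PDGF list were past 2-fold lower in germ cells. Dhh overlaps Rhebl1 on the same strand, whose counts come to 33.6% of its own. Ptch1, receptor and target of the pathway, stood at 167, 159 and 158 CPM against 545, 540.0 and 425 CPM. Gli1, a target gene that reports pathway activity, stood at 3.7 ± 0.639 CPM against 307 ± 14.5 CPM, and Gli3 at 92.1 ± 2.36 CPM against 30.1 ± 3.26 CPM was on the other side, as were Ihh and Pdgfb at 5.19 against 0.501 and 111 against 31.9 CPM. Of 17 tested retinoic acid genes 4 were past 2-fold higher in germ cells and 6 lower. The synthesis gene Aldh1a1 stood at 5.95, 2.92 and 6.14 CPM in germ and 911, 907 and 859.6 CPM in somatic cells, and Cyp26b1, which breaks retinoic acid down, at 4.35 ± 0.41 CPM against 212 ± 13.6 CPM. In germ cells the related Cyp26a1 stood at 5.44, 7.47 and 6.61 CPM with no somatic count (at least 41.3-fold higher), and the binding protein gene Crabp1 at 52.6 ± 8.16 CPM against 0.195 ± 0.126 CPM. Rarb was also higher in germ cells (4.16 ± 0.78), but overlaps Top2b on the opposite strand.

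Cell division genes were moderately higher in germ cells. Of 30 mitosis genes 10 were past 2-fold higher in germ cells and 1 lower, with a median of 0.87, and of 30 replication genes 13 were higher and none lower, with a median of 1.11. Orc1, which marks replication origins, stood at 52.6 ± 3.1 CPM against 8.35 ± 2.3 CPM, and Cenpf, a kinetochore gene, at 294 ± 28.1 CPM against 97.7 ± 6.27 CPM. The exception was Cdk1, the mitotic kinase, at 47.9 ± 6.1 CPM against 115 ± 4.3 CPM. Control of the G1 phase was split, with 7 of 18 higher and 6 lower. Ccnd1 stood at 96.2, 109 and 113 CPM in germ and 4.13, 3.8 and 3.43 CPM in somatic cells, Rb1 at 136 ± 8.67 CPM against 20.9 ± 1.67 CPM, and Cdkn2a at 67.6 ± 12.2 CPM against 0.16 ± 0.063 CPM, whereas the inhibitor genes Cdkn1c and Cdkn1b, at 33.2 against 115 and 31.8 against 94.8 CPM, lay on the somatic side. Ccnd1 overlaps Oraov1 on the opposite strand, whose counts come to 34.96% of its own, and Rb1 overlaps Rcbtb2 likewise, at 39.5%, so both are uncertain.

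Ribosomal protein genes lay on the somatic side. None of 75 ribosomal protein genes was past 2-fold higher in germ cells, 23 were past 2-fold lower and 40 more were called lower within 2-fold, with a median of −0.87. The farthest were Rps4x at 173 ± 7.71 CPM against 1228 ± 77.3 CPM, Rpl39 at 22.1 ± 2.23 CPM against 146 ± 18.4 CPM and Rpl10 at 164 ± 13.4 CPM against 1021 ± 72.4 CPM, and all 3 genes are X-linked. Processed copies of such genes exist, and 34.7% and 31.3% of the 64-base words of Rps4x and Rpl10 occur elsewhere in annotated genes. Rpl10l, the retrogene named above, was on the opposite side. None of 25 genes of oxidative phosphorylation was past 2-fold in either direction. In glycolysis Aldoc, Pfkp, Gpi1 and the glucose transporter gene Slc2a3 (73.3 against 27.8 CPM) were past 2-fold higher in germ cells, and Tpi1 at 19.7, 20.1 and 20.2 CPM against 238, 257 and 240.5 CPM in somatic cells and Eno2 at 1.59 ± 0.555 CPM against 23.0 ± 3.45 CPM lower. Pfkp overlaps Pitrm1 on the opposite strand, whose counts come to 216% of its own, so its call is uncertain. Of 38 SR and hnRNP splicing factors 3 were past 2-fold higher in germ cells and 3 past 2-fold lower. In the test without the 2-fold threshold 8 were called higher and 22 lower, against 40.5% and 35.7% of all tested genes. Their median was −0.47, or −0.29 with library totals. Esrp1, an epithelial splicing regulator, stood at 311, 291 and 325 CPM in germ and 0.566, 0.101 and 0 CPM in somatic cells, and Elavl2, an RNA-binding protein gene of neurons and gonads, at 105, 106 and 108 CPM against 1.81, 1.47 and 2.02 CPM. Per length, the most abundant protein-coding genes were shared, with mt-Co1 at 5348 FPKM in germ and 4734 FPKM in somatic cells and Eef1a1 at 1897 and 2969 FPKM, with 44.7% and 32.1% of their words in common with other genes.

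Transcription factor families were described after their values had been seen. Of 148 tested homeobox genes, 91 were past 2-fold higher in germ cells (61.5%) and 30 lower (20.3%). Most of the 91 were low, with 52 under 5 CPM and a median of 3.73 CPM, and 17 of them are Rhox and 10 Hox genes. The 30 lower genes had a somatic median of 40.4 CPM, and the summed level of all 148 was 1681 CPM in germ and 2739 CPM in somatic cells. Dlx3 at 76.3 ± 0.617 CPM against 0.0189 ± 0.0327 CPM and Gsc at 49.1 ± 10.6 CPM with no somatic count were high in germ cells, and Lhx9 at 0.881 ± 0.513 CPM against 112 ± 14.7 CPM was high in somatic cells. The Hox genes differed by cluster. In the B cluster 7 of 10 tested genes were past 2-fold higher in germ cells and 1 lower, in the C cluster 1 and 5 of 7, in the D cluster 2 and 5 of 7, and in the A cluster none of 4. Hoxb4 stood at 13.5 ± 2.18 CPM against 0.171 ± 0.249 CPM and Hoxd9 at 1.13 ± 0.307 CPM against 215 ± 3.81 CPM. Among 8 tested Rhox genes, a homeobox cluster on chromosome X, all but Rhox8 were past 2-fold higher in germ cells, though 83.5% of the words of Rhox2a occur in its sister genes.

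Basic leucine zipper genes lay on the other side, with 26 of 45 past 2-fold lower in germ cells (57.8%) and 3 higher. The immediate early genes were in this set. Fos stood at 103 ± 9.52 CPM against 1549 ± 151 CPM, Fosb at 42.7 ± 9.99 CPM against 1620.1 ± 80.8 CPM, Junb at 18.7 ± 5.96 CPM against 695 ± 143 CPM and Jun at 37.6 ± 1.13 CPM against 871 ± 56.5 CPM. All 4 encode subunits of the AP-1 transcription factor. Forkhead genes were higher in germ cells in 16 of 32 cases and lower in 3, led by Foxf1 at 108 ± 4.26 CPM against 0.164 ± 0.17 CPM, with Foxo1, a stem cell regulator, at 218 ± 21.0 CPM against 42.6 ± 3.46 CPM. Of 724 long intergenic non-coding RNAs, 296 were past 2-fold higher in germ cells (40.9%) and 120 lower (16.6%), against 25.2% and 22.9% of protein-coding genes. Among 9 tested genes chosen from chromosome Y, Usp9y at 76.0 ± 10.6 CPM against 0.0672 ± 0.116 CPM, Uba1y, Zfy1, Zfy2 and Rbmy were past 2-fold higher in germ cells and Ddx3y, at 17.2 ± 1.12 CPM against 91.2 ± 4.16 CPM, lower, while Zfy1 and Zfy2 share 37.6% and 35.5% of their words with each other or other genes.

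The gene of the drug's own receptor was higher in germ cells. Nr3c1 (chromosome 18, 39410545 to 39491301) stood at 80.9, 92.8 and 91.8 CPM in germ and 35.2, 33.4 and 28.5 CPM in somatic libraries, with means of 88.5 ± 6.61 CPM against 32.4 ± 3.5 CPM and a log2 fold change of 1.45 ± 0.11 (edgeR adjusted p 1.3e-07). All germ libraries were above all somatic libraries, and it was the single gene of 15 steroid and hormone receptor genes past 2-fold higher in germ cells, against 11 that were lower. Hsp90aa1, a chaperone of the unliganded receptor, stood at 2159 ± 171 CPM against 671 ± 53.3 CPM, with 44.7% of its words in other genes, and the coactivator gene Ncoa3 at 247 ± 5.1 CPM against 56.8 ± 4.58 CPM. Ncoa3 overlaps Sulf2 on the opposite strand, whose counts come to 255% of its own, so its difference is uncertain. Hsd11b2, which inactivates natural glucocorticoids, was lower in germ cells, at 2.67, 4.92 and 3.07 CPM against 59.6, 62.0 and 53.0 CPM. Hsd11b1, which reactivates them, was near the floor in both, at 0.599, 0.592 and 0.326 CPM against 0.736, 1.98 and 1.97 CPM (−1.62 ± 0.59, edgeR adjusted p 0.0244), a call lost when any single library other than dex somatic replicate 1 was left out. Hsd11b1 also overlaps Lamb3 on the opposite strand, whose counts come to 284% of its own, so these values are uncertain. The gene of its cofactor supplier, H6pd, stood at 10.1 ± 1.87 CPM against 76.3 ± 7.95 CPM. As a whole the 24 genes of receptor, chaperones, ligand enzymes, efflux and coregulators had 5 past 2-fold higher, 4 lower and a median of 0.016, whose sign turned without dex germ replicate 3, dex somatic replicate 1 or dex somatic replicate 2.

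Genes known to respond to glucocorticoid lay more often on the somatic side. Of 23 tested, 7 were past 2-fold higher in germ cells under dex and 12 lower, with a median of −1.34, and in saline the same list had a median of −1.03. Zbtb16 (PLZF), a target of GR in many tissues and a regulator of spermatogonial stem cells, stood at 291, 313 and 293 CPM in germ and 20.1, 23.2 and 12.8 CPM in somatic cells (3.997 ± 0.17). Tsc22d3 (GILZ) stood at 159, 149.8 and 166 CPM against 81.2, 85.5 and 77.0 CPM, a change of 0.96 ± 0.08 that was called but not past 2-fold. Per1 stood at 79.7 ± 2.77 CPM against 212 ± 5.94 CPM, Cebpd at 3.4 ± 1.11 CPM against 182 ± 33.5 CPM and Hif3a at 10.1 ± 2.22 CPM against 133 ± 9.15 CPM. Cebpd overlaps Spidr on the opposite strand, whose counts come to 45.4% of its own, so it is uncertain. Map3k6 at 63.0 ± 13.4 CPM against 12.8 ± 1.41 CPM lay on the germ side.

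Whether the gap between the populations is the same with and without dex was tested over all 12 libraries as the germ to somatic difference under dex minus that under saline. In number the gap was much alike, as edgeR called 14441 of 18870 genes (76.5%) in saline, against 76.3% under dex. Of the 4664 genes past 2-fold higher in germ cells under dex and 4415 in saline, 3828 were shared, 82.1% and 86.7% of each list, and no gene was past 2-fold in opposite directions. The difference of differences was called for 170 of 20551 genes (0.827%), 85 shifted toward germ cells under dex and 85 toward somatic cells, and 2730 genes had an unadjusted p under 0.05. This count fell in most fits that left out 1 library: it was 79 without saline somatic replicate 3, 81, 98 and 107 without saline germ replicates 1, 2 and 3, 87 and 110 without dex germ replicates 1 and 3, and 94 and 104 without dex somatic replicates 2 and 3. It was 131 without dex germ replicate 2, 135 and 150 without saline somatic replicates 1 and 2, and 172 without dex somatic replicate 1. The cause of the falls was not tested. DESeq2 called 648. In 35 of the 170 the lowest group mean was under 1 CPM, and in 98 all 4 group means were at 5 CPM or more.

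Among those 98 genes, 58 had a lower germ to somatic difference under dex, and in 57 of them the somatic mean was higher with dex than with saline, by a median of 0.70 on the log2 scale, while the germ mean was higher in 10 (median −0.26). For the other 40 the germ mean was higher with dex in 39 (median 0.41) and the somatic mean in 3 (median −0.33). The directions are partly set by the choice of genes and are descriptions. Zbtb16 is not among the 98 genes, as its saline somatic mean was 1.19 CPM. It was called in every one of the fits that left out 1 library. Its somatic level was 0.558, 2.24 and 0.777 CPM in saline and 20.1, 23.2 and 12.8 CPM with dex, and its germ level 314, 366 and 346 CPM in saline and 291, 313 and 293 CPM with dex, so that the gap was narrower under dex, at −4.11 ± 0.35 on the log2 scale (edgeR adjusted p 1.5e-05). Germ libraries stayed above somatic libraries in both treatments. Tsc22d3 did likewise, with somatic levels of 38.3, 37.5 and 45.8 CPM in saline and 81.2, 85.5 and 77.0 CPM with dex and germ levels of 205, 213 and 195 CPM and 159, 149.8 and 166 CPM (−1.37 ± 0.13, edgeR adjusted p 3.2e-05). Il1r2, the decoy receptor of interleukin 1, stood at 0.101, 0.132 and 0.0972 CPM in saline somatic and 1.36, 2.18 and 1.41 CPM in dex somatic cells, against 11.6, 9.9 and 13.2 CPM and 13.5, 8.76 and 11.3 CPM in germ cells (−3.88 ± 0.50, edgeR adjusted p 0.0012). Il1r2 is also outside the 98 genes. Its saline somatic values lie at or under 3 counts a library (0.132 to 0.152 CPM there), so the size of its shift is uncertain.

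**Figure D4:**
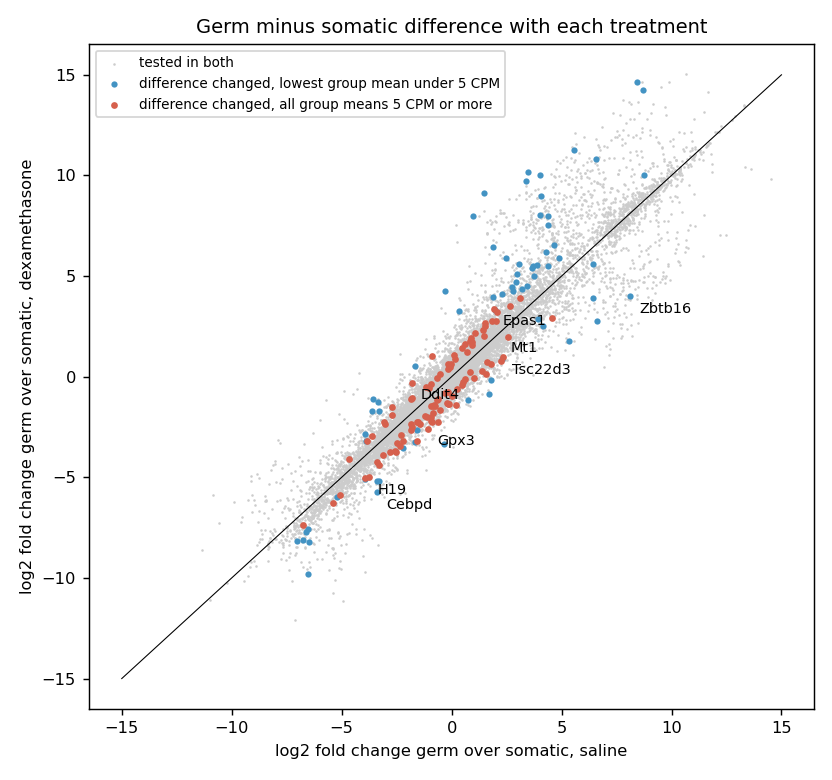
Germ over somatic log2 fold change under dex (vertical) against that under saline (horizontal) for 167 of the 170 genes whose difference was called, with the lowest group mean under 5 CPM in blue and at 5 CPM or more in red. Zbtb16 lies below the diagonal, at −4.11 ± 0.35, and Ddit4 above it, at 1.49 ± 0.27.

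The largest shifts toward germ cells rested on a few somatic reads. Spint1 (interaction 6.21 ± 1.37), Rbmxl2 (5.55 ± 1.09) and Ccdc113 (5.65 ± 1.17) had no count in any dex somatic library. In the saline somatic libraries Spint1 had 0, 12 and 10 counts, Rbmxl2 7, 3 and 9 and Ccdc113 7, 4 and 2, so their fitted values are no measure of size. On the other side Fshr (−3.25 ± 0.69) rested on germ reads, 0, 0 and 3 counts under dex against 13, 12 and 8 in saline. With each of the 12 libraries left out in turn, Spint1 stayed called without saline somatic replicate 1 alone and Ccdc113 without saline somatic replicate 3 alone. Rbmxl2 lost its call in 9 of these 12 fits and Fshr in 8. Several low genes that shifted toward germ cells are leukocyte genes, such as Zap70, Sash3, Rhoh and Ighm. Beside them, the lymphocyte markers summed to 4.57 to 5.25 CPM in saline somatic and 0.760 to 1.86 CPM in dex somatic libraries, and the macrophage markers to 70.8 to 120 and 31.6 to 43.6 CPM. The part of leukocyte number in these calls was not tested.

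At higher levels, and named after their values had been seen, the gap moved toward somatic cells for Erbb3 (−1.65 ± 0.26), Rasgrp2 (−1.61 ± 0.19), Rtn2 (−1.61 ± 0.28), Ncam1 (−1.60 ± 0.18) and Gpx3 (−1.55 ± 0.11), and toward germ cells for Mrc1 (1.91 ± 0.35), Epas1 (1.45 ± 0.29) and Nuak1 (1.21 ± 0.22). Mrc1 is a macrophage gene, and the macrophage sums given above were lower in dex than in saline somatic libraries. The part of macrophage number in its call was not tested. H19 (−1.24 ± 0.18), Col1a1 (−0.87 ± 0.18) and Dlk1 (−0.79 ± 0.16), abundant somatic genes, were called too, and so were Lama3 (0.96 ± 0.14) and the methionine synthase gene Mtr (0.94 ± 0.12) on the germ side. Stromal markers beside them summed to 5277 to 5980 CPM in saline somatic and 7789 to 9582 CPM in dex somatic libraries. Their mean germ sums were 257 CPM in saline and 301 CPM with dex, or 4.56% and 3.55% of the somatic level. Nr3c1 itself had an interaction of 0.08 ± 0.18 with an edgeR adjusted p of 0.949.

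Of the 23 glucocorticoid response genes, 9 were called in the difference of differences, against 0.827% of all genes. Members such as Zbtb16, Map3k6 and Hif3a were listed with their response in these libraries known, so the count is no independent evidence. In 8 of them the gap moved toward somatic cells: Zbtb16, Tsc22d3, Per1 (−0.60 ± 0.12), Cebpd (−2.36 ± 0.42), Errfi1 (−1.24 ± 0.18), the metallothionein gene Mt1 (−1.48 ± 0.25), Angptl4 (−1.08 ± 0.20) and Hif3a (−1.18 ± 0.21). In the other, Ddit4, an inhibitor of mTOR signalling, it moved toward germ cells by 1.49 ± 0.27 (edgeR adjusted p 0.0152), with 28.9, 32.3 and 48.8 CPM in saline and 88.9, 141 and 109 CPM in dex germ cells against 109.5, 157 and 116 CPM and 162, 116 and 139.7 CPM in somatic cells. Fkbp5, the co-chaperone gene most used as a readout of GR, gave −0.06 ± 0.13 with an edgeR adjusted p of 0.926, at 159, 171 and 199 CPM in saline and 175, 197 and 187 CPM in dex germ cells and 258, 291 and 266 CPM and 323, 287 and 288 CPM in somatic cells. The dex and saline libraries of this gene overlapped in both populations.

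**Figure D5:**
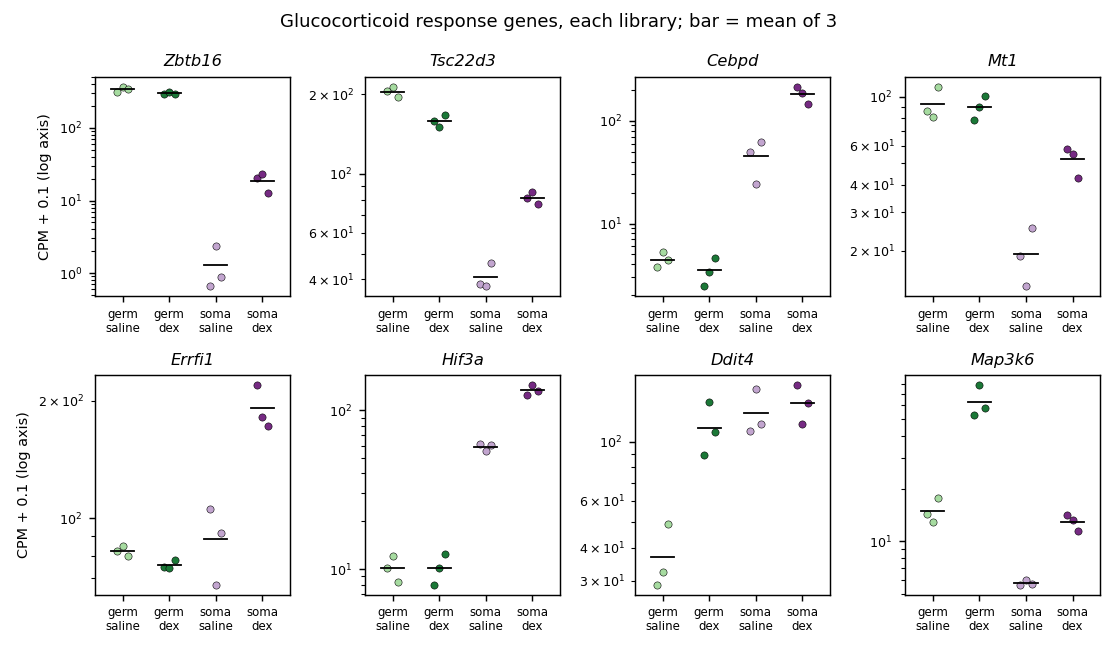
CPM of 8 glucocorticoid response genes in each library of the 4 groups (saline and dex, germ and somatic), with a line at the group mean. Zbtb16 in somatic cells goes from under 3 CPM in saline to 12.8 to 23.2 CPM with dex.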

How the data were processed

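RNA of FACS-sorted cells was poly-dT selected and sequenced as paired ends. The authors aligned reads to mm10 with HISAT2 2.0.5 and deposited raw counts per gene from featureCounts 1.5.0-p3, with no normalization, beside FPKM values that the authors computed from those counts, gene length and depth. The annotation release and the strand setting are not given in the sources used here. The deposited tables of the authors' DESeq2 1.20.0 comparisons hold fold changes and p-values of dex against saline and were not used. Counts were fitted with edgeR 4.0.16 (R 4.3.3, limma 3.58.1) by the quasi-likelihood test, two-sided, with TMM and filterByExpr at a minimum count of 10. Each population comparison used its own 6 libraries, and the difference between treatments used all 12. The threshold test was glmTreat at a log2 change of 1. The biological coefficient of variation was 16.1% in the dex fit. Standard errors are the fold change over the square root of F. The test was tried on simulated counts with known changes in few genes. Most genes were called here, so that trial did not cover the conditions of these data. Replicate pairs differed by more than counting noise. Floors cover counting error only. The labels name no batch, and p-values measure the spread between pooled replicates.

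Genes, gene lists and tests were chosen with earlier results of these data known. Named were fixed genes (Ddx4, Dazl, Pou5f1, Amh, Sox9, Acta2, Star, Cyp11a1, Nr3c1, Hsd11b1, Hsd11b2, Zbtb16, Tsc22d3 and ligand and receptor pairs), the 8 largest changes in each direction at an average log2 CPM of at least 4, the 8 coding and 2 non-coding restricted genes of highest level, up to 3 members of each list in each direction and those against its majority, the 3 largest called interactions in each direction, and the 5 genes of highest FPKM. Other named genes were picked for their role or after their values were seen. Alternatives covered DESeq2 1.42.0, limma-trend on log2(FPKM + 0.1) and log2(FPKM + 1), other scalings and filters, a replicate block and leaving out each library. Gene identifiers matched GENCODE M21 in 54495 of 54532 cases. RefSeq promoters matched 68.4% of tested genes, so no comparison of base composition was made.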

Additional observations from a re-analysis of the deposited data

Results flagged for a closer look

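A difference between dex and saline in the germ to somatic contrast was called for 7 named genes by the interaction test of edgeR over all 12 libraries (log2 values, dex minus saline). Zbtb16 gave −4.11, Il1r2 −3.88 and Tsc22d3 −1.37, with somatic levels higher under dex in every library. For Il1r2 the saline somatic values were at or under 3 counts a library, so the size is uncertain. Spint1 gave 6.21, Ccdc113 5.65 and Rbmxl2 5.55, each with no dex somatic count, and Fshr gave −3.25 on 3 germ counts under dex. These last 4 calls were lost in 11, 11, 9 and 8 of the 12 fits that left out 1 library and with a replicate block, while those of Zbtb16, Il1r2 and Tsc22d3 were lost in none of them.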

How the results depend on the processing

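The 14326 genes called under dex lay between 13947 and 14713 when 1 library was left out and numbered 14332 with DESeq2, and the 8700 past 2-fold lay between 8448 and 9062. Genes past 2-fold fell to 5148 (2333 higher in germ cells) with at least 10 counts in each library, a filter that removes genes silent in one population, and to 4986 (2607 higher, 2379 lower) with limma-trend on log2(FPKM + 1), whose pseudocount shrinks low genes. The difference between treatments went from 170 genes to 648 with DESeq2, 262 with at least 10 counts in each library and 79 to 172 when 1 library was left out, and Spint1, Ccdc113, Rbmxl2 and Fshr lost their call in most of those. Restricted germ genes went from 257 to 452 when up to 10 counts were allowed in the other population and 819 at 1 CPM or more, and lay between 264 and 310 with 1 library left out. Restricted somatic genes went from 36 to 5 at 0 counts, 127 and 176 under the same changes, and 37 to 54. The causes of the other shifts were not tested.

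Same-numbered dex germ and somatic libraries did not deviate together (r of −0.005, −0.013 and −0.014). The positive values in dex were those of germ 2 with somatic 1 (0.020), germ 3 with somatic 2 (0.026) and germ 1 with somatic 3 (0.020). In saline the same-numbered libraries had r of 0.045, 0.054 and 0.052, positive where all other saline pairs were negative (−0.041 to −0.012), but under 0.1, so the numbers were not used as a pairing. A block by replicate number may not follow the pools, which the labels do not give. With a replicate block 13653 genes were called under dex, 14157 in saline and 90 in the difference between treatments, where Spint1, Ccdc113, Rbmxl2 and Fshr lost their call (edgeR adjusted p 0.125, 0.110, 0.0622 and 0.0832). Under dex the call of Hsd11b1 was also lost with the block (−1.55, edgeR adjusted p 0.117).

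List medians that turned sign were those near 0 or rich in silent genes. The endothelial median of −0.11 became 0.080 with library totals, 0.45 with at least 10 counts in each library, 0.067 and 0.026 with limma-trend on log2(FPKM + 0.1) and log2(FPKM + 1), and −0.38 to 0.20 with 1 library left out (0.20 without dex somatic replicate 1). At 10 counts in each library the medians of pluripotency genes, G1 genes, Hox genes and Y-linked genes became −1.02, −0.22, −3.38 and −0.50. The median of receptor and ligand handling genes, 0.016, lay between −0.063 and 0.11 with 1 library left out, at −0.0023 without dex germ replicate 3 and −0.043 and −0.063 without dex somatic replicates 1 and 2.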
